A study of Mus musculus with 12 samples.

Results

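The genes described here are 38 mouse genes of the lysosome and of the proton pump that acidifies it, followed across 12 Affymetrix arrays of B lymphoma cells. They were taken by name from a list that was made with earlier results of these data known. A gene was represented by the probe set annotated to that gene alone and, where there was more than 1, by the brightest over the 12 arrays. This found 36 of the 38 genes, and all 36 were among the 12961 genes tested. The 2 others, the protease gene Ctsb and the pump subunit gene Atp6v0c, had no probe set of their own by this rule and are not analysed here.

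The cells of every group were primary cultures of B lymphomas from l-MYC;B1-8f mice of strain C57BL/6J x BALB/c, whose age the labels do not give; l-MYC is a MYC transgene and B1-8f an antibody heavy chain gene that Cre can delete. Cultures received TAT-Cre protein, which removes the antigen receptor that B cells carry on their surface, the B-cell receptor or BCR. There were 4 groups of 3 arrays, and each group held 1 array from each of the tumours 2567, 2646 and 2676. BCR-positive and untreated BCR-negative cells were sorted from 4-day mixed cultures of both kinds of cell. The third group was sorted as BCR-negative cells after exposure to CHIR99021, which blocks the kinase GSK3. The fourth was BCR-independent cells, which arose after long culture of BCR-negative cells; each of these arrays is a single clone (clone 8 of tumour 2567, clone 7 of 2646 and clone 1 of 2676). For tumours 2646 and 2676 the titles of both untreated sorted samples carry a final "(2)", 4 titles in all, and its meaning is not stated. Each group thus had 3 tumours. The fit removes the level of each tumour, so p-values measure how far differences between groups vary from tumour to tumour. That spread is pooled over the 4 groups. In the BCR-independent group, clone and group cannot be told apart within a tumour.

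Lysosomes are acidic compartments in which cells break down proteins, sugar chains and lipids that arrive from the surface or by autophagy. The vacuolar ATPase keeps them acidic: its V1 sector burns ATP in the cytosol, and its V0 sector carries protons through the membrane. In B cells the same compartments process antigen that the BCR has taken up. The transcription factors TFEB and TFE3 are known to switch on many lysosomal genes by binding E-box sites in their promoters. GSK3 and the kinase mTOR both phosphorylate TFEB and hold it in the cytosol.

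The deposited values were log2 signals, with array medians from 3.32 to 3.44. An array's 40th percentile, from 3.06 to 3.16, served as the mark for signal above background. By that mark 33 of the 36 genes were above background on all 12 arrays. The exceptions were Ctsl (7 arrays), Hexa and Lamp2 (10 arrays each). The deleted heavy chain followed the labels: Ighv1-72, the variable segment of the B1-8 chain, was at 9.45 to 9.97 in BCR-positive cells. It was at 5.85 to 6.97 in BCR-negative, 4.93 to 6.26 in CHIR99021-treated and 3.72 to 4.21 in BCR-independent cells. The cause of the signal left in the sorted BCR-negative cells was not tested. B cell markers were present (Cd79a at 9.48 to 10.75, Pax5 at 7.88 to 8.72), except Ms4a1, which was at 2.55 to 3.19. Of 8 macrophage markers, Adgre1, Cd14 and Mertk were above background on 0 arrays and Lyz2 on 1. Csf1r was above it on 9 arrays, Mrc1 and Fcgr1 on 10 each, and Itgam, at 4.08 to 5.97, on all 12. Of 5 plasma cell markers, Sdc1, Xbp1 and Irf4 were above background on all 12 arrays, Prdm1 on 1 and Jchain on 0. In bulk samples fewer cells of a type and less RNA per cell cannot be told apart.

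Across the comparisons the 13 lysosomal enzymes (6 cathepsins, 6 glycosidases and the lipase Lipa) and the 15 pump subunits showed different medians. With CHIR99021, 11 of the 13 enzymes were higher than in untreated BCR-negative cells, with a median of 0.24 on the log2 scale; of all genes 56.7% were higher. Of the pump subunits 8 of 15 were higher, with a median of 0.025, and the median of all genes tested was 0.026. The enzyme median was 0.42 in tumour 2567, 0.24 in 2646 and -0.016 in 2676, so that the third tumour did not show it. In BCR-independent against BCR-negative cells 11 of 13 enzymes were again higher (55.3% of all genes), with a median of 0.21 against 0.010 for the pump and 0.017 for all genes. These comparisons share the BCR-negative arrays and are given side by side only.

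At most 2 members passed the test in any comparison (limma, Benjamini-Hochberg adjusted p under 0.05 over 12961 genes). With CHIR99021 against untreated BCR-negative cells 1 of 36 passed, where 1.91% of all genes did. It was Ctsz, a cysteine protease that trims proteins from their carboxyl end. Against BCR-positive cells, CHIR99021-treated cells had 2 members past the test, Ctsz and Neu1 (0.802% of all genes). BCR-independent against BCR-positive cells gave 1 member, the pump subunit Atp6v0a1 (0.0849% of all genes). No member passed in BCR-negative against BCR-positive cells (0.00772% of all genes), in BCR-independent against BCR-negative cells (0.00772%) or between CHIR99021-treated and BCR-independent cells (0.162%). At an unadjusted p under 0.05 those comparisons held 2, 7 and 5 of the 36 members, where 3.19%, 5.99% and 12.3% of all genes passed. The comparisons with a called member held 10 (CHIR99021-treated against BCR-negative, 16.6% of all genes), 14 (treated against BCR-positive, 15.6%) and 10 (BCR-independent against BCR-positive, 9.61%).

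**Figure D1:**
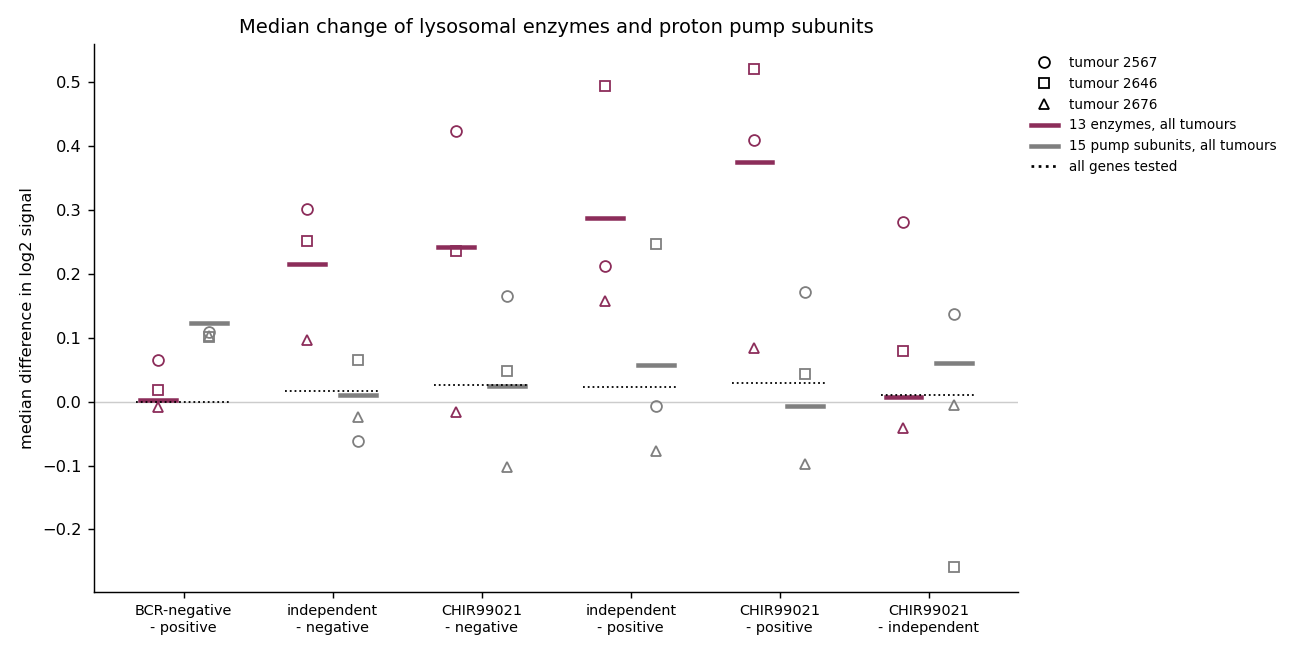
Median difference in log2 signal (vertical axis) of 13 lysosomal enzymes and 15 proton pump subunits in 6 comparisons (horizontal axis). Open symbols are medians within 1 tumour, bars are medians of the fitted changes over the 3 tumours, and dotted lines are medians of all 12961 genes. Enzyme bars lie at 0.21 to 0.37 when CHIR99021-treated or BCR-independent cells are compared with BCR-negative or BCR-positive cells, and pump bars in the same comparisons lie at -0.0076 to 0.058.

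On loss of the BCR alone the enzyme median was near 0, but it depended on the genes and tumours included. In BCR-negative against BCR-positive cells 7 of 13 enzymes were higher (median 0.0027) and 9 of 15 pump subunits (median 0.12), where 49.7% of all genes were higher, with a median of -0.00093. The enzyme median was 0.19 with a stricter filter on dim probe sets and 0.0082 to 0.13 without 1 tumour, so that it was not set apart from that of the pump. The pump medians within tumours 2567, 2646 and 2676 were 0.11, 0.10 and 0.10, but the 2 sectors differed between tumours. The V0 medians were -0.016, 0.18 and 0.32, and the V1 medians 0.11, 0.014 and -0.0063. Of the 15 pump subunits 4 were higher in all 3 tumours, as were 1610 of all 12961 genes, and 0 had an unadjusted p under 0.05 by limma. The members with the smallest p in this comparison were Ctsd, Neu1, Ctsh and Atp6v0b, all with an adjusted p of 0.999. Against BCR-positive cells, the enzyme median was 0.29 in BCR-independent cells and 0.37 in CHIR99021-treated cells, with the pump at 0.058 and -0.0076. Within tumours 2567, 2646 and 2676 the enzyme medians were 0.21, 0.49 and 0.16 in BCR-independent cells and 0.41, 0.52 and 0.084 in treated cells. Those of the pump were -0.0069, 0.25 and -0.077, and 0.17, 0.043 and -0.098. In tumour 2676 7 of 13 enzymes were higher in treated cells. Between CHIR99021-treated and BCR-independent cells 7 of 13 enzymes were higher in the treated cells (52.8% of all genes), with a median of 0.0080. Single enzymes differed by -0.77 (Hexa) to 1.63 (Lipa), and the medians within tumours 2567, 2646 and 2676 were 0.28, 0.079 and -0.042. A median near 0 thus does not mean that the enzymes were alike.

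**Figure D2:**
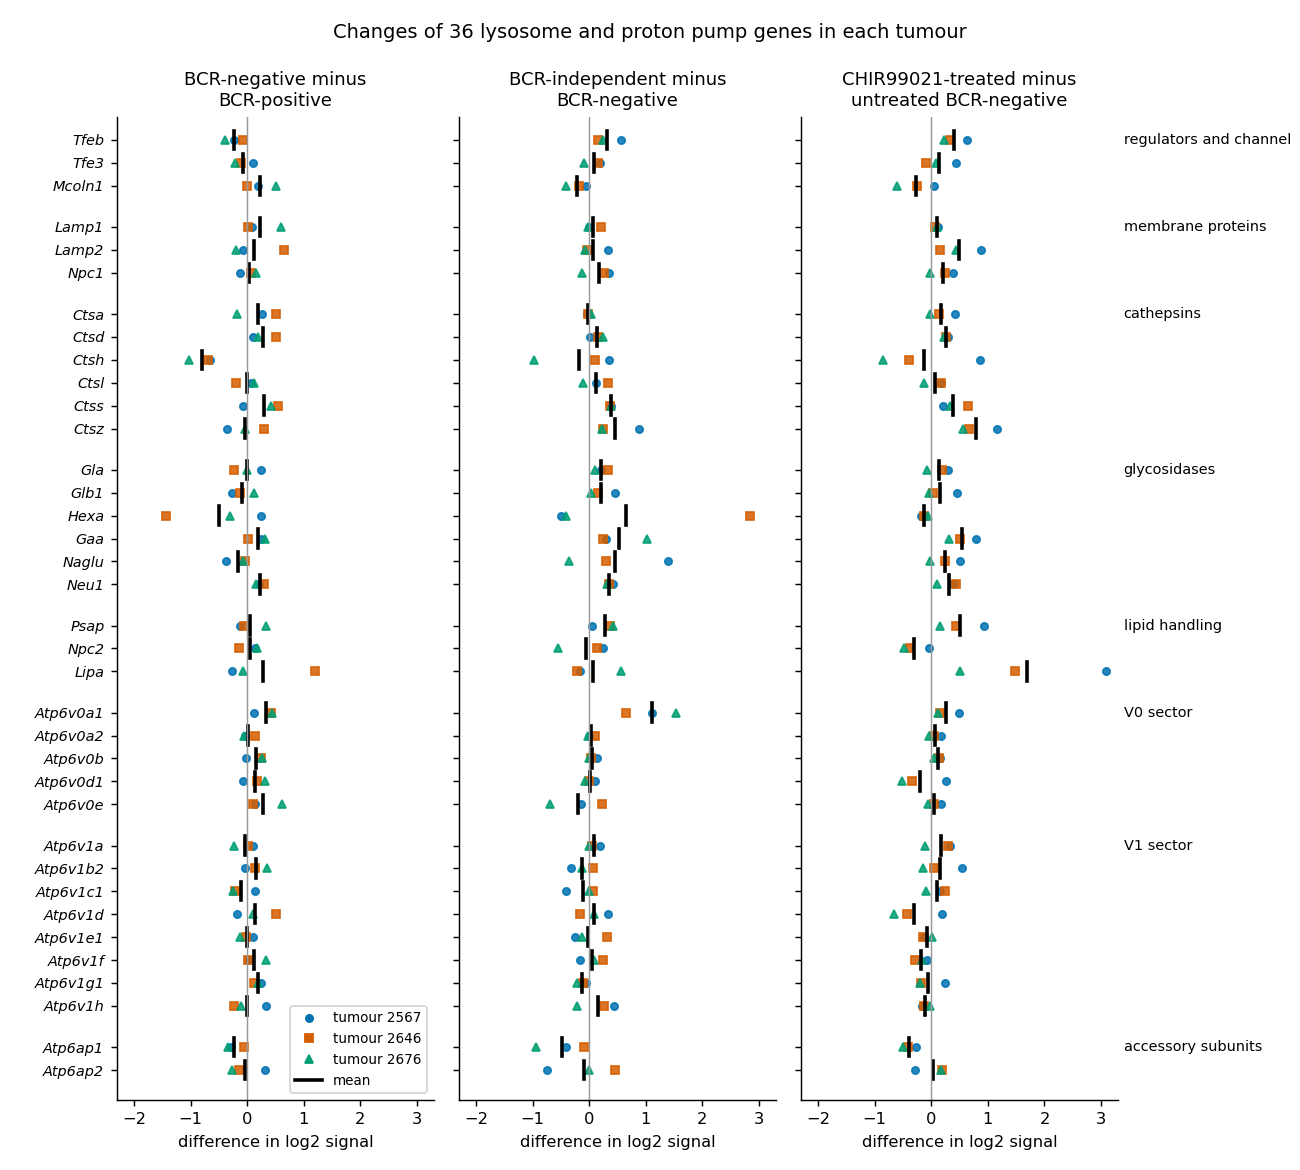
Difference in log2 signal (horizontal axis) of each of the 36 genes, grouped by role (vertical axis), in 3 comparisons. Coloured symbols are the differences within each tumour and black ticks their mean. Most pump subunits lie close to 0, Atp6v0a1 stands at 1.10 in BCR-independent cells, and Lipa spreads from 0.50 to 3.08 with CHIR99021.

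Among the regulators, Tfeb encodes the master transcription factor of lysosomal genes. Its log2 signal in tumours 2567, 2646 and 2676, the order used for every set of 3 values here, was 4.98, 5.32 and 5.21 in BCR-positive cells and 4.75, 5.25 and 4.82 in BCR-negative cells. It was 5.30, 5.42 and 5.06 in BCR-independent cells and 5.38, 5.58 and 5.05 with CHIR99021. Each tumour had its lowest value in the untreated BCR-negative cells, but the groups overlapped because the tumours differed. The change with CHIR99021 was 0.39 (SE 0.12, n = 3 tumours, adjusted p = 0.128), that in BCR-independent against BCR-negative cells 0.32 (adjusted p = 0.811), and neither passed the test.

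Tfe3, the relative of Tfeb that binds the same sites, was at 4.19, 5.06 and 5.02 in BCR-positive cells and 4.30, 4.96 and 4.80 in BCR-negative cells. It was at 4.48, 5.11 and 4.71 in BCR-independent cells and 4.74, 4.86 and 4.88 with CHIR99021. No comparison moved it by more than 0.14, and the tumour accounted for 72.7% of its variance. Mcoln1 encodes the calcium channel of the lysosomal membrane through which TFEB is also activated. It was at 5.85, 6.33 and 6.46 in BCR-positive, 6.05, 6.33 and 6.97 in BCR-negative, 6.00, 6.16 and 6.55 in BCR-independent and 6.09, 6.08 and 6.36 in CHIR99021-treated cells. With CHIR99021 it differed by -0.27 (SE 0.13, adjusted p = 0.322), opposite in sign to Tfeb.

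The promoters of the members were searched for the letters that TFEB, TFE3 and MYC are known to bind. RefSeq windows (assembly GRCm38.p6, 250 bases before to 50 after a gene start) covered 30 of the 38 genes. The E-box CACGTG, which reads the same on both strands, was in the windows of 13 of the 30 genes (43.3%), against 8.09% of all genes in the table and 11.3% of the genes tested here. With T before and A after it, TCACGTGA was in 7 of the 30 (23.3%) against 1.12% of all genes. The longer palindrome GTCACGTGAC was in 0 of the 30 and 0.37% of all genes. Within the 250 bases before the start alone, 11 of the 30 genes held the E-box (36.7%), against 6.86% of all genes. Over the whole window it was present for 7 of 12 enzymes and 4 of 11 pump subunits; before the start alone it was present for 7 and 2 of them.

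The stretches below, 80 bases 5′ to 3′ on the gene's strand with the E-box in capitals, show 6 of these genes with different roles. Lamp1 carries 4 boxes within 61 bases of its start, the most of any member. Mcoln1, Ctsd, Gaa and Ctsa show a channel and enzymes with boxes at different distances, and Atp6v0b a pump subunit.
Lamp1, chr8:13159081-13159160, plus strand: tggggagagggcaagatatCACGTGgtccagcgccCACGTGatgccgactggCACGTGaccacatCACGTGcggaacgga
Mcoln1, chr8:3500437-3500516, plus strand: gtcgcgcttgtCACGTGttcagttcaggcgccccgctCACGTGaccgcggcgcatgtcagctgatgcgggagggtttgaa
Ctsa, chr2:164833693-164833772, plus strand: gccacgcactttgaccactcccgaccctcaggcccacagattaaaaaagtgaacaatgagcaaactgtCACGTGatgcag
Ctsd, chr7:142387883-142387962, minus strand: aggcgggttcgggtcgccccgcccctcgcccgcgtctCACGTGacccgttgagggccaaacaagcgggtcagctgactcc
Gaa, chr11:119267786-119267865, plus strand: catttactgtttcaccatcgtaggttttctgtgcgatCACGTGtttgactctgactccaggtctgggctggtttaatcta
Atp6v0b, chr4:117887330-117887409, minus strand: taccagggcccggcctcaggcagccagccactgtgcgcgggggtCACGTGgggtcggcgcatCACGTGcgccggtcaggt

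The 3 members that passed a test had none of these letters in their windows. The 80 bases before their starts are given for comparison, in lower case throughout because nothing matched; this says only that the letters are not in the windows searched.
Ctsz, chr2:174439040-174439119, minus strand: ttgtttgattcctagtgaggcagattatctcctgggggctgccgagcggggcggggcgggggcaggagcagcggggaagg
Neu1, chr17:34931173-34931252, plus strand: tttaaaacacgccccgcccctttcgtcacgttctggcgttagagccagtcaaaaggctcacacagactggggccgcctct
Atp6v0a1, chr11:101010318-101010397, plus strand: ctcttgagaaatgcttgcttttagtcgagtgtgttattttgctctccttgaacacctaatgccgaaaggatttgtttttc

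Changes of members with and without the letters are given side by side, with no test. With CHIR99021 against untreated BCR-negative cells, the 13 genes with an E-box had a median of 0.14 (11 higher) and the 16 tested genes with a window but no E-box 0.20 (10 higher). In BCR-independent against BCR-negative cells the medians were 0.080 and 0.085, and on BCR loss 0.16 and 0.055. Against BCR-positive cells they were 0.18 and 0.19 in BCR-independent cells, and 0.14 (11 of 13 higher) and 0.12 (9 of 16 higher) in treated cells. Between treated and BCR-independent cells they were 0.011 and 0.032.

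Of the membrane proteins, Lamp1 and Lamp2 encode the heavily glycosylated proteins that line the lysosome, and Npc1 the cholesterol exporter. Lamp1 was at 8.04, 8.07 and 7.92 in BCR-positive cells and at 8.13, 8.09 and 8.51 in BCR-negative cells. It was at 8.13, 8.30 and 8.49 in BCR-independent and 8.25, 8.16 and 8.61 in CHIR99021-treated cells. All 9 arrays without the receptor thus lay above the 3 with it (of all genes 2.5%, 4.79% and 6.99% lay apart upward in BCR-negative, BCR-independent and treated against BCR-positive cells), but the differences of 0.23 to 0.33 did not pass the test (adjusted p from 0.237 to 0.999). Npc1 moved by at most 0.23 in any comparison.

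Lamp2 separated the tumours rather than the groups. Its signal was 7.03 to 7.90 in tumour 2567 and 7.70 to 8.50 in tumour 2646, but 2.85 to 3.36 in tumour 2676, at the level of the background, in all 4 groups. The tumour accounted for 98.4% of its variance. Of 35556 probe sets on the array, 2 had all 4 arrays of tumour 2676 more than 3 log2 units below the other 8 arrays, and no probe set had such a gap in tumour 2567 or 2646. One was that of Lamp2 (gap 3.67) and the other that of Cul4b (gap 3.99), which encodes a scaffold of ubiquitin ligases. This count was made after the Lamp2 values were seen.

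Lamp2 and Cul4b are next to each other on chromosome X in the RefSeq gene order. Cul4b was at 6.80 to 7.19 in tumour 2567, 6.69 to 7.19 in 2646 and 2.44 to 2.70 in 2676. The next gene beyond Cul4b, Mcts1, was 0.53 below the mean of the other tumours and above background on all 4 arrays of tumour 2676. C1galt1c1 after it was at 3.52 to 3.53 in each tumour. On the Lamp2 side, Atp1b4 was at background in all tumours, and Zbtb33 was at 5.21 in tumour 2676 against 5.14 and 5.65. A cause of the shared low signal was not tested.

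**Figure D3:**
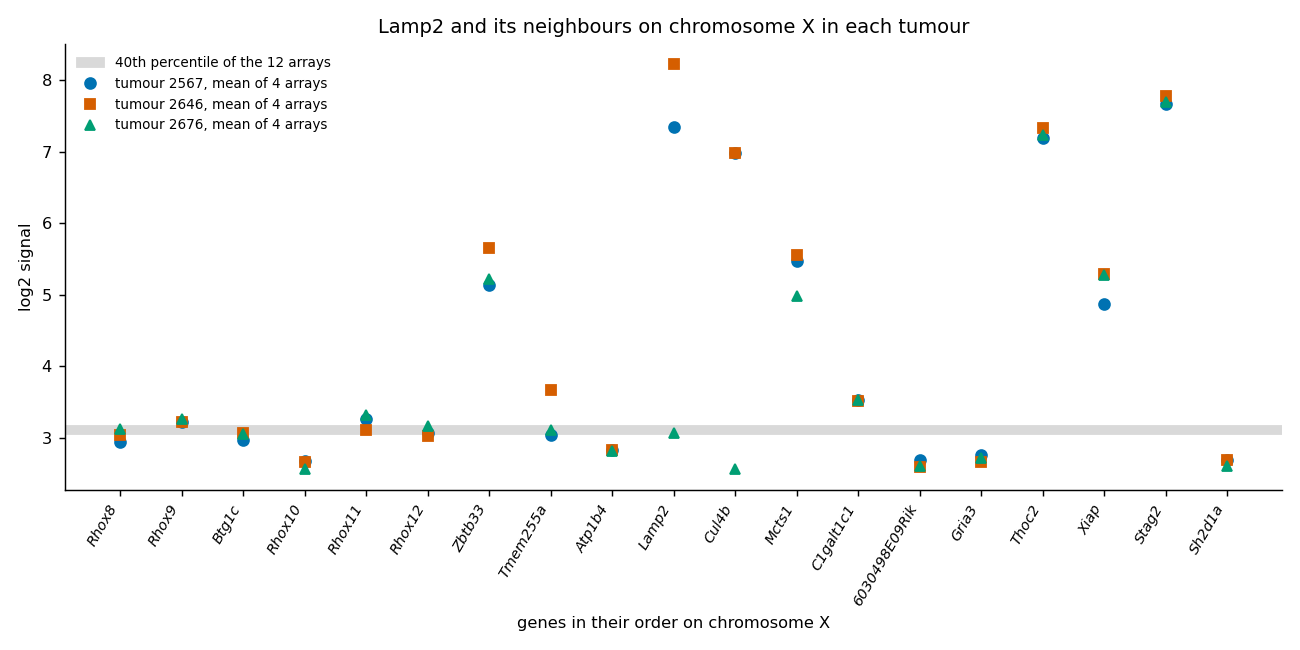
Mean log2 signal over the 4 arrays of each tumour (vertical axis) for Lamp2 and neighbouring protein-coding genes with a probe set, in their order on chromosome X (horizontal axis); levels of different genes are not comparable. In tumour 2676 Lamp2 is at 3.07 and Cul4b at 2.56, against 7.35 and 8.22, and 6.97 and 6.98, in the other tumours; the grey band marks the 40th percentile.

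Because of this, changes of Lamp2 in tumour 2676 are differences near background. With CHIR99021 against untreated BCR-negative cells Lamp2 differed by 0.87, 0.15 and 0.44, a mean of 0.49 (SE 0.18, adjusted p = 0.203). Without tumour 2676 the mean was 0.51.

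The cathepsins are the proteases of the lysosome, and Ctsz was the member that passed the test with CHIR99021. Its signal was 8.15, 8.29 and 7.59 in BCR-positive cells and 7.79, 8.59 and 7.56 in BCR-negative cells. It was 8.66, 8.84 and 7.79 in BCR-independent cells and 8.95, 9.25 and 8.13 with CHIR99021. Within every tumour the treated cells were the highest of the 4 groups, while the groups overlapped across tumours because 2676 was low throughout. Ctsz rose by 0.80 against untreated BCR-negative cells (1.74-fold, SE 0.14, adjusted p = 0.0347), with 1.16, 0.66 and 0.57 in the 3 tumours. Against BCR-positive cells it rose by 0.77 (1.70-fold, adjusted p = 0.0483). The difference from BCR-independent cells was 0.35 (adjusted p = 0.364), and that of BCR-independent from BCR-negative cells 0.45 (adjusted p = 0.781).

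The call for Ctsz rested on all tumours and on the block. Without tumour 2567, 2646 or 2676 the change against BCR-negative cells was 0.61, 0.87 and 0.91, and 0 members passed. B cell markers also differed with the treatment: the mean level of 7 of them was 6.89 to 7.30 in CHIR99021-treated cells and 7.35 to 7.71 in BCR-negative cells, and their part in the result was not tested. The macrophage markers averaged 3.13 to 3.25 in treated and 3.12 to 3.35 in untreated cells. Of the 4 macrophage markers tested 3 were lower with the treatment and 1, Csf1r, was higher, with a median of -0.15. Itgam, the brightest of them, was at 4.23, 4.44 and 4.78 in treated cells and 4.28, 4.75 and 5.97 in untreated BCR-negative cells. Csf1r was at 3.15, 4.13 and 3.38 in treated cells, against 3.20, 3.11 and 3.15 in untreated ones.

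Ctsh, an aminopeptidase among the cathepsins, went the other way. It was at 4.45, 5.28 and 5.63 in BCR-positive cells and 3.80, 4.60 and 4.60 in BCR-negative cells, lower in each tumour without the receptor. It was at 4.14, 4.69 and 3.61 in BCR-independent and 4.65, 4.21 and 3.74 in CHIR99021-treated cells. The differences from BCR-positive cells were -0.79, -0.97 and -0.92 (SE 0.36 each, adjusted p = 0.999, 0.442 and 0.257), and none passed. With CHIR99021 against untreated cells the tumours disagreed, at 0.86, -0.39 and -0.86.

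Ctsd, the main aspartyl protease, was at 6.42, 6.25 and 5.96 in BCR-positive cells and 6.53, 6.77 and 6.15 in BCR-negative cells. It was at 6.55, 6.93 and 6.40 in BCR-independent cells and 6.83, 7.03 and 6.38 with CHIR99021. Each of the 3 groups without the receptor was above the BCR-positive array of its tumour. The difference between CHIR99021-treated and BCR-positive cells was 0.54 (SE 0.11, adjusted p = 0.0610), just outside the threshold, and that on BCR loss 0.27. Ctss, which trims the invariant chain of MHC class II in B cells, showed 0.69 (adjusted p = 0.0858) and 0.68 (adjusted p = 0.291) in treated and BCR-independent against BCR-positive cells. Ctsa, the protective protein of Neu1 and Glb1, moved by at most 0.37 and Ctsl, above background on 7 arrays, by at most 0.11.

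The glycosidases strip sugars from glycoproteins and glycolipids, and all 6 were higher in BCR-independent than in BCR-negative cells, with a median of 0.40. The medians within tumours were 0.36, 0.31 and 0.063, and the mean of Hexa was -0.45 without tumour 2646 and that of Naglu -0.027 without tumour 2567. Neu1, the lysosomal sialidase, was at 5.12, 4.92 and 4.36 in BCR-positive cells and 5.33, 5.23 and 4.52 in BCR-negative cells. It was at 5.74, 5.58 and 4.83 in BCR-independent and 5.71, 5.66 and 4.63 in CHIR99021-treated cells. In each tumour the order from low to high was BCR-positive, then BCR-negative, then the other 2 groups. Neu1 rose by 0.53 in treated against BCR-positive cells (1.45-fold, SE 0.096, adjusted p = 0.0466), with 0.59, 0.74 and 0.26 in the tumours. Without each tumour in turn it was 0.50, 0.43 and 0.66, and no member passed. In BCR-independent against BCR-positive cells it differed by 0.58 (adjusted p = 0.109), against BCR-negative cells by 0.36 (adjusted p = 0.665), and on BCR loss by 0.22.

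Gaa, the acid alpha-glucosidase that breaks down glycogen, was 0.54 higher with CHIR99021 (0.79, 0.50 and 0.31, adjusted p = 0.228) and 0.52 higher in BCR-independent cells (0.30, 0.25 and 1.02, adjusted p = 0.814) than in BCR-negative cells. Naglu, which removes N-acetylglucosamine from heparan sulfate, differed by 1.40, 0.30 and -0.35 in the BCR-independent clones, so that its mean of 0.45 came mainly from clone 8 of tumour 2567. Hexa, the alpha subunit of beta-hexosaminidase, was at 6.14 in clone 7 of tumour 2646 and at 4.74 in BCR-positive cells of that tumour, and between 2.90 and 3.78 on the other 10 arrays. Gla and Glb1, the alpha- and beta-galactosidases, moved by at most 0.22 in any comparison.

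Among the genes of lipid handling, Lipa encodes the acid lipase that frees fatty acids and cholesterol from lipoproteins. Its signal was 4.84, 5.14 and 4.90 in BCR-positive cells and 4.57, 6.34 and 4.83 in BCR-negative cells. It was 4.40, 6.12 and 5.40 in BCR-independent and 7.65, 7.81 and 5.34 in CHIR99021-treated cells. The treated cells of tumours 2567 and 2646 were the highest of all 12 arrays, and those of tumour 2676 lay in the range of the other groups. The change against untreated BCR-negative cells was the largest of any member, 1.69 (3.22-fold), but the tumours differed widely (3.08, 1.47 and 0.50) and it did not pass the test (SE 0.52, adjusted p = 0.140). Against BCR-positive cells it was 1.97 (adjusted p = 0.115), with the 2 groups apart, as were 6.99% of all genes upward.

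Psap encodes prosaposin, whose pieces help the enzymes that degrade sphingolipids. It was at 8.25, 9.06 and 8.97 in BCR-negative cells and 9.19, 9.50 and 9.13 with CHIR99021, and it was the only member whose groups did not overlap in that comparison (5.9% of all genes were apart upward). The difference was 0.51 (0.93, 0.44 and 0.16, adjusted p = 0.202). Npc2, the carrier that hands cholesterol to Npc1, differed by -0.30 (-0.048, -0.38 and -0.47, adjusted p = 0.397), opposite to Lipa and Psap.

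**Figure D4:**
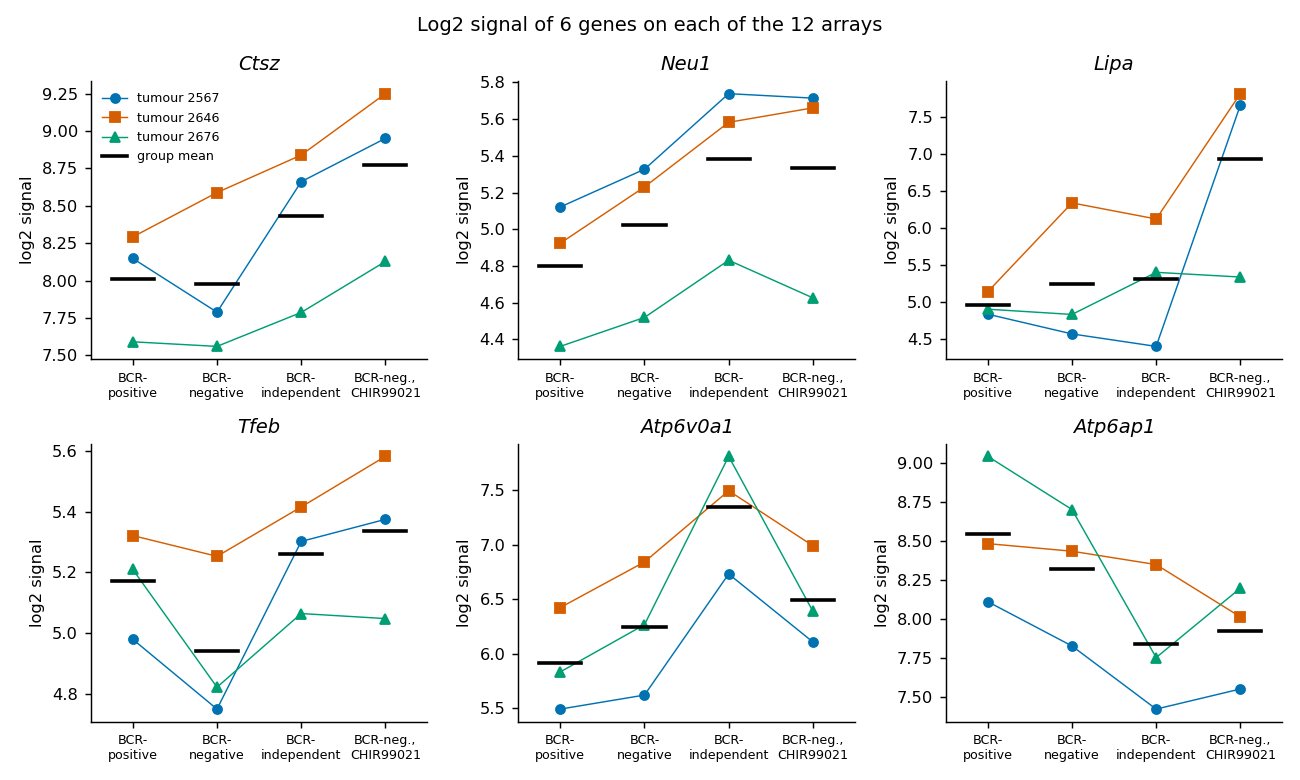
Log2 signal (vertical axis) of Ctsz, Neu1, Lipa, Tfeb, Atp6v0a1 and Atp6ap1 on each array, by group (horizontal axis); coloured symbols joined by lines are the 3 tumours and black bars the group means. Ctsz is highest with CHIR99021 in every tumour, Atp6v0a1 is highest in the BCR-independent clones at 6.73, 7.49 and 7.81, and Lipa with CHIR99021 is at 7.65, 7.81 and 5.34.

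In the V0 sector 1 subunit stood apart. Atp6v0a1 encodes the a1 form of the large subunit that forms the proton path and places the pump in particular membranes. Its signal was 5.49, 6.42 and 5.83 in BCR-positive cells and 5.62, 6.84 and 6.27 in BCR-negative cells. It was 6.73, 7.49 and 7.81 in BCR-independent and 6.11, 6.99 and 6.39 in CHIR99021-treated cells. The 3 clones lay above all BCR-positive arrays, as they did for 4.79% of all genes. Each clone was also the highest of its tumour. Atp6v0a1 rose by 1.43 in BCR-independent against BCR-positive cells (2.69-fold, SE 0.18, adjusted p = 0.0243), with 1.24, 1.07 and 1.98 in the tumours. Without each tumour in turn it was 1.52, 1.61 and 1.15, and 0 members passed.

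Against BCR-negative cells the same clones differed by 1.10 (2.15-fold, 1.11, 0.65 and 1.54, adjusted p = 0.325). CHIR99021-treated cells were 0.85 below the clones (-0.62, -0.50 and -1.42, adjusted p = 0.130) and 0.58 above BCR-positive cells (adjusted p = 0.155). The other forms of this subunit did not follow it. Atp6v0a2, the a2 form, moved by at most 0.076 in any comparison. Tcirg1, the a3 form and not in the list of 38, differed by -0.31 in the clones against BCR-negative cells (0.17, -0.36 and -0.73) and by 0.35 with CHIR99021; neither passed (adjusted p = 0.863 and 0.500).

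The remaining V0 subunits moved less. Atp6v0b, part of the proton-carrying ring, was at 7.60, 7.33 and 7.71 in BCR-positive and 7.59, 7.57 and 7.97 in BCR-negative cells. It was at 7.73, 7.60 and 7.96 in BCR-independent cells and 7.75, 7.71 and 8.01 with CHIR99021, where the difference from BCR-positive cells was 0.27 (SE 0.084, adjusted p = 0.147). Atp6v0d1, the stalk base, and Atp6v0e, a small membrane subunit, differed by -0.20 and 0.054 with CHIR99021.

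None of the 8 V1 subunits passed a test. On BCR loss 4 of 8 were higher, from -0.11 (Atp6v1c1) to 0.19 (Atp6v1g1). In BCR-independent against BCR-negative cells 4 of 8 were higher, from -0.13 to 0.16. With CHIR99021 3 of 8 were higher, from -0.30 for Atp6v1d, a part of the rotating stalk, to 0.17 for Atp6v1a, the subunit that splits ATP. The tumours disagreed on Atp6v1d (0.19, -0.43 and -0.65). A second probe set for Atp6v1f, Atp6v1g1 and Atp6v0a2 gave changes of the same sign as the first in these 3 comparisons.

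The accessory subunit Atp6ap1, which helps the pump to assemble, was lower in every group without the receptor. It was at 8.11, 8.48 and 9.04 in BCR-positive cells and 7.83, 8.43 and 8.70 in BCR-negative cells. It was at 7.42, 8.35 and 7.75 in BCR-independent and 7.55, 8.01 and 8.20 in CHIR99021-treated cells. The differences from BCR-positive cells were -0.22, -0.70 and -0.62 (SE 0.18 each, adjusted p = 0.999, 0.304 and 0.133), and each tumour was lower in each comparison, but none passed. Atp6ap2, the second accessory subunit, moved by at most 0.13.

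Other genes of the pathway were tested in 5 lists, which held 94 genes beside the 36 members. With CHIR99021 against untreated BCR-negative cells 4 of the 94 rose and 1 fell, where 1.91% of all genes passed. Ctsc, the protease that activates granule enzymes, rose by 1.04 (1.24, 1.20 and 0.69, adjusted p = 0.0322). Gusb, the beta-glucuronidase, rose by 0.58 (0.43, 0.76 and 0.55, adjusted p = 0.0365). Slc29a3, a nucleoside transporter of the lysosomal membrane, rose by 0.89 (1.24, 0.80 and 0.62, adjusted p = 0.0338). Nagpa, which finishes the mannose 6-phosphate tag that sorts enzymes to lysosomes, rose by 0.92 (1.07, 0.98 and 0.72, adjusted p = 0.0386). Mtor, the kinase that senses nutrients at the lysosome, fell by 0.72 on the log2 scale (adjusted p = 0.0372), and within tumours by 0.97, 0.84 and 0.37.

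All 4 were higher in each tumour, as were 25.7% of all genes in this comparison. None of the 5 calls held without the tumour block (adjusted p from 0.0977 to 0.959), with the title mark as a term (0.0826 to 0.175) or without any 1 tumour (0.0806 to 0.402). The list of 26 other hydrolases and activators had a median of 0.18 (0.40, 0.21 and -0.052 in the tumours), and the 16 other pump genes and assembly factors a median of 0.030. The 24 other membrane proteins had a median of 0.083, the 18 genes of the nutrient-sensing complex 0.051 and the 10 sorting genes 0.14. Against BCR-positive cells 2 of the 94 passed, where 0.802% of all genes did. Mtor fell by 0.86 (adjusted p = 0.0350) and Gnptg, a subunit of the enzyme that starts the mannose 6-phosphate tag, rose by 0.45 (0.47, 0.40 and 0.47, adjusted p = 0.0376), and both calls were lost under the same 3 kinds of change. In the other 4 comparisons 0 of the 94 passed by limma: at an unadjusted p under 0.05 there were 5 on BCR loss (5.32%, against 3.19% of all genes), 13 in BCR-independent against BCR-negative cells (13.8% against 5.99%), 19 against BCR-positive cells (20.2% against 9.61%) and 21 in treated against BCR-independent cells (22.3% against 12.3%). The largest difference among them in BCR-independent against BCR-negative cells was that of Arsb, a sulfatase, at -1.78 (-2.65, -1.18 and -1.52, adjusted p = 0.665). In treated against BCR-negative cells, where 5 were called, 18 of the 94 had an unadjusted p under 0.05 (19.1%, against 16.6% of all genes). In treated against BCR-positive cells there were 25 (26.6% against 15.6%).

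The tumours differed more than the groups for most members. The tumour took a median of 48.1% of the variance of the 36 genes and the group 24.3%, where the medians over all genes were 39.8% and 20.7%. The tumour took more than the group in 27 of the 36. Of the 15 pump subunits 13 had their lowest mean in tumour 2567. Of the 13 enzymes 10 had their highest mean in tumour 2646 and 7 their lowest in tumour 2676. No share over all genes is given for these counts, so they are not read as traits of the members. Ctsa was lowest in tumour 2567 (a mean of 6.08 against 7.57 and 6.93), whereas Gaa was highest there (6.51 against 5.10 and 5.20). Atp6v1e1 (81.4%), Atp6v0a2 (81.0%) and Ctsa (89.6%) followed Lamp2 in the share of variance between tumours. For Atp6v0a1 the tumour took 32.9% of the variance and the group 60.3%.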

How the data were processed

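RNA of 12 samples was measured on Affymetrix mouse gene arrays. The authors deposited log2 signals of 35556 probe sets. The submitters' processing notes name RMA and Affymetrix Power Tools, with no version or setting. RMA pulls arrays to a common distribution, so a shift shared by all genes is lost. Of the probe sets 21218 had 1 gene symbol, 1881 several and 12457 none. A gene was represented by its probe set of highest mean and tested if above the 40th percentile of its array on at least 3 arrays, which left 12961 genes. Probe sets differ in brightness, so levels were not compared between genes. limma 3.58.1 in R 4.3.3 fitted group and tumour (lmFit, eBayes) to all 12 arrays, with Benjamini-Hochberg adjustment over all genes and a threshold of 0.05 (6 residual and 3.41 prior degrees of freedom). The tumour was a block because the titles name the same tumour in each group. After group means were subtracted, residuals of arrays of 1 tumour correlated at 0.28 to 0.79, of different tumours at -0.72 to 0.16. Residuals within a group cancel out, which by itself pushes correlations between tumours of that group below zero. The low end of that range is thus partly fixed in advance. The fit was tested on simulated data with changes larger than those of the called members, so recovery of changes of their size was not tested. The number of arrays limits the precision. The members and gene lists were chosen with earlier results of these data known. Given in full were members that passed a test, the regulators, and the 4 members of smallest p in each of the comparisons BCR-negative with BCR-positive, BCR-independent with BCR-negative and CHIR99021-treated with BCR-negative cells; other pathway genes if they passed. Lamp2 and its neighbours, Lamp1, Ctss, Gaa, Naglu, Hexa, Psap, Npc2, Tcirg1, Arsb and Atp6ap1 were named beside these, some after their values were seen. RefSeq promoters were searched for 3 motifs.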

Additional observations from a re-analysis of the deposited data

How the results depend on the processing

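With 3 tumours a group, calls depended on every tumour and on the design. Without replicate 2567, 2646 or 2676 in turn 0 members passed in any of the 6 comparisons, in fits with fewer arrays. Without the replicate block (tumour left out of the paired fit), with the title mark as a term, or with only the groups compared in the fit, the members called were 0 in CHIR99021-treated against BCR-negative cells (1 as reported), 0 in BCR-independent against BCR-positive cells (1 as reported) and 0 in treated against BCR-positive cells (2 as reported). With array weights they were 6 (Atp6ap1, Ctsz, Lipa, Mcoln1, Neu1 and Tfeb) in treated against BCR-negative cells and 0 in BCR-independent against BCR-positive cells. In treated against BCR-positive cells 1 passed without the filter (Neu1), with quantile normalization (Ctsz) and with an intensity trend (Ctsz). Ctsz against BCR-negative cells passed in 7 of 13 alternatives (adjusted p 0.0048 to 0.70) and Atp6v0a1 against BCR-positive cells in 6 of 13 (0.017 to 1.00). Against BCR-positive cells Ctsz in treated cells passed in 6 of 13 (0.035 to 0.83) and Neu1 in 5 of 13 (0.043 to 0.89). The 5 pathway genes called in treated against BCR-negative cells passed in 7 or 8 of 13 alternatives each, and against BCR-positive cells Mtor in 7 and Gnptg in 6. Over all alternatives 0 of 507 values of named genes reversed a call, while 475 were the same, 28 weaker and 4 stronger. Most of these values belong to results without a call, which had none to reverse.

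Medians moved more than the spread between tumours as follows. On BCR loss the enzyme median was 0.19 with a stricter filter, 0.061 with array weights and 0.0082 to 0.13 without 1 tumour. The pump median was 0.13 with cyclic loess, 0.095 with the mean of probe sets and 0.055 to 0.16 without 1 tumour. The median of all members was 0.11 with array weights and 0.050 to 0.14 without 1 tumour. With the title mark as a term the member median was 0.27 (enzymes 0.42) in BCR-independent against BCR-negative cells, 0.31 against BCR-positive cells and 0.33 in treated against BCR-positive cells. In tumours 2646 and 2676, and nowhere else, both untreated sorted groups carry the mark. The pump median in treated against BCR-positive cells was -0.040 to 0.16 without 1 tumour. The cause of the other moves was not tested.

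The genes called of all 12961 varied as much. In treated against BCR-negative cells 248 passed (55.6% upward), against 12 without the block, 32 with the title mark, 109 with only the groups compared, 1635 with array weights, 1 to 17 without 1 tumour, and 236 (44.1% upward) with cyclic loess. In treated against BCR-positive cells 104 passed (44.2% upward), against 7, 8, 0, 168, 4 to 19, and 183 (32.2% upward) in the same order. In BCR-independent against BCR-positive cells 11 passed, against 4 without the block, 3 with array weights, 1 with only the groups compared and 1 to 4 without 1 tumour. In treated against BCR-independent cells 21 passed, against 0 to 39 under the alternatives. In the remaining comparisons 1 passed, against 0 to 3.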
